A study of Mus musculus with 14 samples.

Results

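The arrays taken at 2 h, 7 of the 14 in the series, compared inhibitors of Janus kinases (JAKs) that name JAK1 or TYK2 among their targets with inhibitors that name neither. The arrays were chosen by target label and time alone. On one side stood 4 inhibitors, labelled JAK1 (IFN.3404 in the titles), JAK1/2 (IFN.6221), PAN (IFN.6222) and TYK2 (IFN.2485), and on the other 3, labelled JAK2 (IFN.3885) and JAK3 (IFN.6226 and IFN.6228). The PAN label names no single kinase and was taken to include JAK1. Every culture held splenic CD4+ T cells of male C57BL/6 mice aged 6 weeks, taken by negative selection and activated for 48 h with CD3/28 beads. All then received interferon alpha at 100 U/ml and 1 inhibitor at its IC80 for 2 h. Untreated cells and cells given interferon alone were not analysed here. What follows compares inhibitors with each other and does not measure a distance from the full or the absent response. Below, a gene fell where it was called lower with inhibitors naming JAK1 or TYK2 than with the others, not against untreated cells. There was 1 array per inhibitor, the labels do not say whether mice were pooled, and the molar doses behind the IC80 are not given in the sources used here. A p-value therefore measures the class difference against the spread between inhibitors of a class. The test (limma) draws the spread of each gene towards a trend over all genes tested. The SE and p of a gene thus do not rest on its own arrays alone, and a gene with a wide spread gets a smaller SE.

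Each value is the log2 of the intensity of 1 probe set, the brightest of its gene. The median intensity was 109 to 116 per array, and the Pearson r between arrays was 0.994 to 0.998 across probe sets, which are not independent replicates. In these bulk samples fewer cells of a type and less RNA per cell cannot be told apart. The 7 T cell markers measured had mean log2 intensities of 9.81 to 12.43, and their summed log2 level was 79.77 to 80.45 in the JAK1 or TYK2 class and 79.82 to 80.47 with the other 3. For the 6 B cell markers the sums were 45.95 to 46.87 against 46.00 to 46.53, and for the 7 of macrophages and monocytes 44.84 to 45.61 against 45.56 to 46.29. Of the markers of these and 7 other cell types, 0 of those tested passed the class test, and the part of such cells in the results was not tested. Only 3 of the 7 macrophage and monocyte markers and 2 of 6 dendritic cell markers were bright enough to be tested. The dendritic sums were 36.94 to 37.74 against 37.46 to 38.25. In every cell type the sums of the classes overlapped. A higher intensity of one probe set than of another does not rank their genes.

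Interferon alpha binds a receptor of the chains IFNAR1 and IFNAR2, which are held by TYK2 and JAK1. These kinases phosphorylate STAT2, which works with IRF9 in the complex ISGF3 that binds the interferon-stimulated response element (ISRE) of antiviral genes. JAK3 pairs with JAK1 on the common gamma chain receptors, among them the interleukin-2 receptor, while JAK2 serves other cytokine receptors. A comparison of inhibitors by target label at 2 h asks which part of the early interferon response follows the kinases of the interferon receptor.

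With the inhibitors naming JAK1 or TYK2, 82 genes were lower and 0 higher than with those naming JAK2 or JAK3 only, of 11851 tested (0.692%, limma adjusted p under 0.05, 484 genes or 4.08% at an unadjusted p under 0.05). None of the 82 overlapped between the classes, against 371 genes without overlap in the lower direction among all tested (3.13%) and 223 in the higher (1.88%). The differences of the 82 ran from 1.22-fold to 4.62-fold, with a median of -0.78 on the log2 scale, against a median of 0.01 over all genes tested. By lists of antiviral and interferon-induced families, 64 of the 82 belonged to such a family, 4 to another list only and 14 to none. The 11 interferon lists held 111 tested genes, of which 64 passed and 97 did not overlap, all lower, with a median difference of -0.58. The lists were chosen with earlier results of these data known, so these shares may be partly given by that choice and are no test. The count rested on each of the 3 inhibitors naming JAK2 or JAK3 only: it was 28 without IFN.6228, 35 without JAK2 and 47 without IFN.6226. It was 18 with the spread estimated from all 14 arrays, 46 with robust variance moderation and 34 with the JAK3 pair averaged. Rsad2, Slfn5, Cmpk2, Rnf213, Oas3, Stat2, Trim25 and Cxcl10 were among the 18. Ifit3, Ifit1, Usp18, Oasl2, Mx1, Mx2, Parp12, Iigp1 and Oas2 were not. Among genes named by rule, those no longer called with robust moderation were Casp4, Cmpk2, Dhx58, Gbp4, Gbp7, Gbp8, Gm4951, Gm8995, Ifit1, Ifit3, Iigp1, Irgm1, Mx2, Parp14, Pml, Rnf213, Samd9l, Slfn5, Slfn8, Stat2, Trim25, Trim30d and Usp18.

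**Figure D1:**
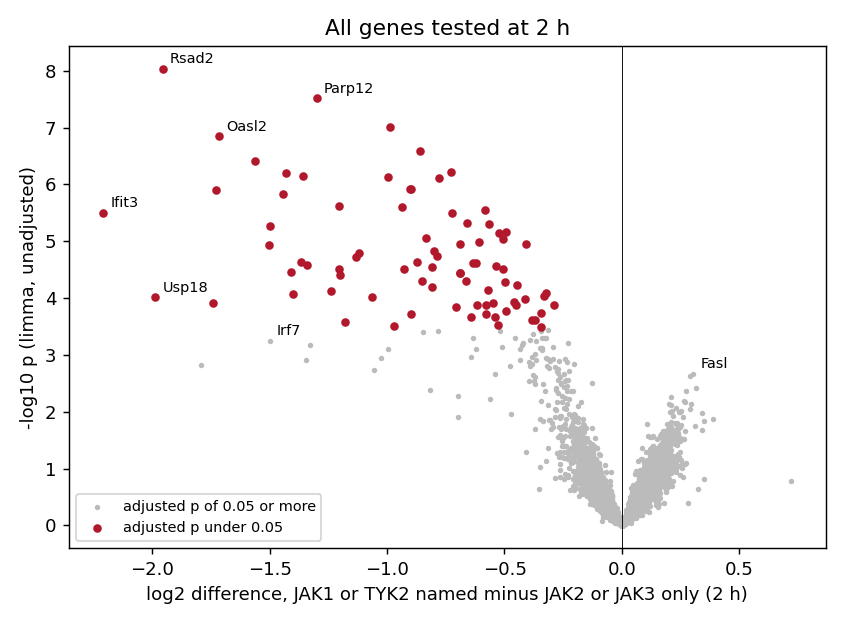
Each point is 1 of the 11851 genes tested, by its log2 difference (inhibitors naming JAK1 or TYK2 minus those naming JAK2 or JAK3 only, 2 h) and the -log10 of its unadjusted limma p. The 82 genes with an adjusted p under 0.05, in red, all lie on the lower side, down to -2.21 for Ifit3.

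The 4 tested genes of the list of Mx GTPases, viperin and Cmpk2 all fell. Rsad2 encodes viperin, an enzyme that makes a chain-terminating nucleotide. It was at 6.54 with JAK1, 7.25 with JAK1/2, 7.33 with PAN and 7.12 with TYK2, against 9.08 with JAK2, 8.90 with IFN.6226 and 9.06 with IFN.6228. The highest of the 4 lay more than 1.5 log2 units under the lowest of the 3, and Rsad2 fell by 1.95 (SE 0.15, 3.88-fold, n = 4 against 3 inhibitors, adjusted p = 1.09e-04). Its neighbour Cmpk2, a mitochondrial nucleotide kinase, fell by 1.44 (SE 0.17). Of the dynamin-like antiviral GTPases, Mx1 was at 5.30, 6.04, 6.23 and 5.79 with JAK1, JAK1/2, PAN and TYK2, against 7.49, 7.33 and 7.39 with JAK2, IFN.6226 and IFN.6228. Mx2 was at 5.02, 5.87, 6.08 and 6.06, against 7.13, 7.25 and 7.39 in the same order. Both fell (Mx1 -1.56, SE 0.17, and Mx2 -1.498, SE 0.20), and with all 4 inhibitors naming JAK1 or TYK2 both lay under 6.27, the mean level a gene needed to be tested.

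The 3 IFIT genes tested all fell. Ifit3 was at 5.93 with JAK1, 7.19 with JAK1/2, 7.51 with PAN and 7.15 with TYK2, against 9.51 with JAK2, 8.91 with IFN.6226 and 9.04 with IFN.6228. The JAK1 array was the lowest by more than 1 log2 unit, and the difference of -2.21 (SE 0.28, 4.62-fold, adjusted p = 0.00188) was the largest of all genes. Ifit1 was at 7.21, 8.82, 9.003 and 8.87 with JAK1, JAK1/2, PAN and TYK2, against 10.33, 10.21 and 10.11 with JAK2, IFN.6226 and IFN.6228, and fell by 1.74 (SE 0.32, adjusted p = 0.0224). Its 3 values other than that of JAK1 lay within 0.2 of each other. Ifit2 fell by 0.94 (SE 0.12). Quantile normalization, cyclic loess and robust moderation were among the settings that ended the call of Ifit1.

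**Figure D2:**
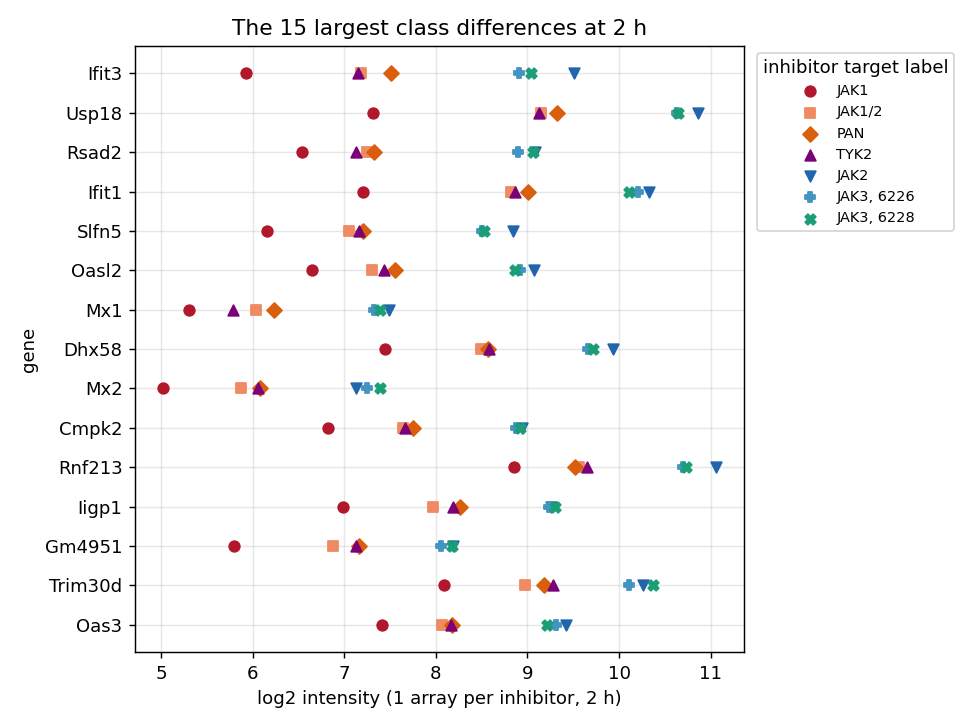
Rows are the 15 genes with the largest class difference, the x axis is the log2 intensity, and each symbol is the 2 h array of 1 inhibitor. In each row the 4 inhibitors naming JAK1 or TYK2 (red, orange and purple) lie left of the 3 others (blue and green), and JAK1 is the leftmost, as for Ifit3 at 5.93.

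The 82 genes were set against the promoters listed for them by RefSeq (GRCm38.p6), windows from 250 bases before to 50 after a transcription start. The motif searched was GAAANNGAAA, the core of the ISRE, on both strands (TTTCNNTTTC on the other), overlapping matches counted. It was present in 27 of 81 windows of the genes that fell (33.3%, Wilson 95% interval 24 to 44.1%), from 63 genes with a window, and in 17 of 46 windows (37.0%) of interferon list genes that did not pass. It was present in 2.95% of the windows of all genes tested and in 3.44% of all 32851 windows. The longer form GAAANNGAAACT was in 17.3% of the windows of the genes that fell in 21.7% (10 of 46) of those of interferon list genes that did not pass, and in 0.271% of all windows. The 4 genes with the largest difference whose window held the core are shown, 5′ to 3′ along the gene, with the core in capitals.
Ifit3: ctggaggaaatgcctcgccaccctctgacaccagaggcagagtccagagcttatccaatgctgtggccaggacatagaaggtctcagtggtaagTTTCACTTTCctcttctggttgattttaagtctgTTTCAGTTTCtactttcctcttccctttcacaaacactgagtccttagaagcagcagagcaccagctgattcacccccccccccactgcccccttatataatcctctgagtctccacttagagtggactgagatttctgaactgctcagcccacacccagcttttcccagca
Rsad2: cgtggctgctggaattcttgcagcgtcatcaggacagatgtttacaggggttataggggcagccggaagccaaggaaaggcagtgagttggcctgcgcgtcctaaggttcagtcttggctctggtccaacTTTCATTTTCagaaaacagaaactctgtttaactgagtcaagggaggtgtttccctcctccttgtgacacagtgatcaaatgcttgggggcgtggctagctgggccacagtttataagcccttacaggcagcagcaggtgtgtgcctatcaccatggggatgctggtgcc
Ifit1: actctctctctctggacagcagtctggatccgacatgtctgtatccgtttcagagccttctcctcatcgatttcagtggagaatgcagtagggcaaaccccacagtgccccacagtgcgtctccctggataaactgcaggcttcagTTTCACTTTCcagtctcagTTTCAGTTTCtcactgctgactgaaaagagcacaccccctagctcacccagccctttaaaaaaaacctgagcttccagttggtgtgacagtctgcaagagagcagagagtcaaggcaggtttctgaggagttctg
Slfn5: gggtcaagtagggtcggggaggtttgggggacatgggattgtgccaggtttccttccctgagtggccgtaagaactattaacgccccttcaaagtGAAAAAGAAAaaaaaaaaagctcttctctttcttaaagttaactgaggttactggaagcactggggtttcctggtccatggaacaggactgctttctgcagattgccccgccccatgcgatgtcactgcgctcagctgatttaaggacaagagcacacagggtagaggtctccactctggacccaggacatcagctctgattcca
These windows lie at chr19:34583279-34583578 on the plus strand (Ifit3), chr12:26456403-26456702 on the minus strand (Rsad2), chr19:34640639-34640938 on the plus strand (Ifit1) and chr11:82951852-82952151 on the plus strand (Slfn5). Ifit3 and Ifit1 held 2 copies each, and the match in Slfn5 lies in a run of A. A match is a description of these letters and not of a bound site.

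Genes that fell often lay side by side on the chromosome. In the order of the RefSeq table, 36 of the 82 had another of them as the next tested gene on one side or the other. Of the 163 next neighbours 44 had passed (27.0%), against 0.692% of all genes tested. Such pairs and runs were Ifit1, Ifit3 and Ifit2, Oas2 with Oas3, Oasl1 with Oasl2, Mx1 with Mx2, Rsad2 with Cmpk2, Parp9, Dtx3l and Parp14, Ifi203, Ifi208 and Ifi209, and Trim34a, Trim12a, Trim12c, Trim30a and Trim30d. Several are near-identical copies, whose probes may read one another's RNA, so their values are not independent.

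The oligoadenylate synthetases make a messenger that activates RNase L, and 4 of the 7 members tested fell. Oasl2 was at 6.65, 7.30, 7.56 and 7.44 with JAK1, JAK1/2, PAN and TYK2, against 9.07, 8.92 and 8.87 with JAK2, IFN.6226 and IFN.6228. It fell by 1.72 (SE 0.17, adjusted p = 4.25e-04), and Oas3 fell by 1.36 (SE 0.15). In Oas2 the JAK1 and JAK1/2 arrays were level: it was at 6.72, 6.72, 6.98 and 6.79 against 7.96, 7.75 and 7.66, and it fell by 0.99 (SE 0.09). Oasl1, a translational inhibitor of Irf7, fell by 0.66 (SE 0.09) and was lowest with TYK2, at 7.09. Oas1a was at -0.06 with overlapping classes, and Oas1b at -0.82 and Oas1c at -0.38 had adjusted p of 0.310 and 0.190.

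Of 15 sensors of foreign nucleic acids and their adaptors tested, 9 fell, among them the RNA sensors Ddx58 (RIG-I) by 0.90 (SE 0.10), Ifih1 (MDA5) by 1.21 (SE 0.15) and Dhx58 (LGP2, 2.83-fold lower), and the RNA-activated kinase Eif2ak2 (PKR) by 1.24 (SE 0.22). Ifih1 was at 7.78, 8.33, 8.47 and 8.64 with JAK1, JAK1/2, PAN and TYK2, against 9.54, 9.46 and 9.53 with JAK2, IFN.6226 and IFN.6228. The endosomal RNA receptor Tlr7 fell by 0.81 (SE 0.13), with TYK2 at 6.71 beside JAK1 at 6.69. The Z-nucleic acid sensor Zbp1 fell by 0.62 (SE 0.10). Of the DNA sensing genes, Ifi208 fell by 1.34 (SE 0.21) and Ifi203 by 0.69 (SE 0.11). The cytosolic DNA sensors Cgas (-0.15) and Aim2 (0.09) and the adaptors Sting1 (-0.01) and Mavs (0.01) overlapped between the classes.

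**Figure D3:**
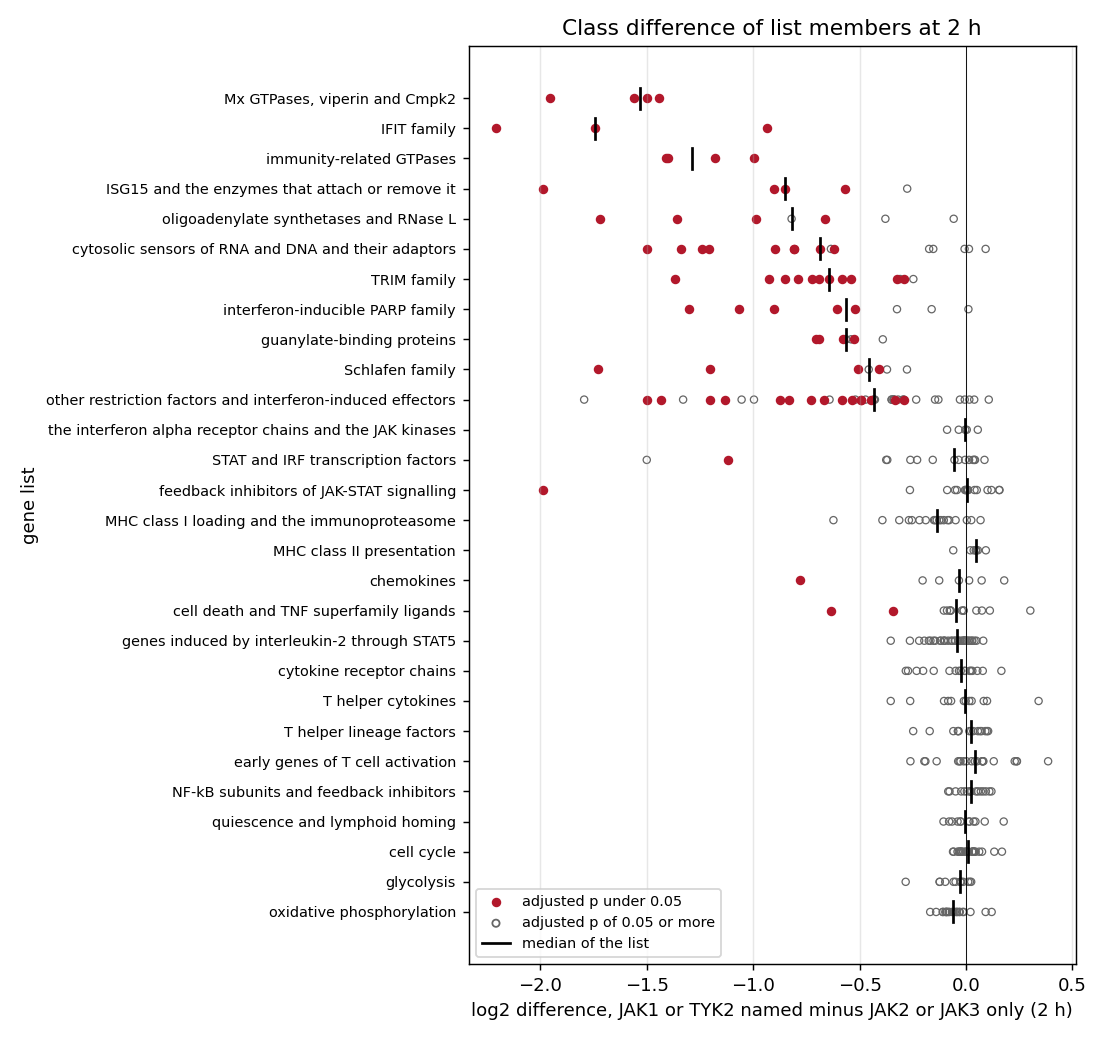
Each point is a tested gene of the list named at the left, by its log2 class difference at 2 h, filled red where the adjusted p was under 0.05, and black bars are list medians. The 11 interferon lists at the top have medians from -1.74 to -0.43, and those of the other 17 lie between -0.14 and 0.05.

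The ubiquitin-like modifier ISG15 has no probe set of its own here, but 4 of the 5 tested genes of its enzymes fell. Usp18, which removes ISG15 and also restrains the interferon receptor, was at 7.32 with JAK1, 9.14 with JAK1/2, 9.32 with PAN and 9.13 with TYK2, against 10.86 with JAK2, 10.63 with IFN.6226 and 10.64 with IFN.6228. The JAK1 array lay 1.81 under the next, and Usp18 fell by 1.99 (SE 0.36, adjusted p = 0.0187). Quantile normalization, cyclic loess and robust moderation were among the settings that ended this call. Ube2l6, the conjugating enzyme, ran against that order, with JAK1 the highest of the 4 at 7.96 and TYK2 the lowest at 7.74, against 8.34 to 8.49 with JAK2 and the JAK3 pair, and fell by 0.57 (SE 0.08). The ligases Herc6 and Trim25 fell by 0.90 (SE 0.11) and 0.85 (SE 0.14). Uba7, the activating enzyme, was at -0.28 with an adjusted p of 0.169.

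In the TRIM family, ubiquitin ligases and nuclear body proteins, 11 of 13 tested members fell and none overlapped. Trim30d fell by 1.37 (SE 0.21), Trim21, an intracellular antibody receptor, by 0.72 (SE 0.09) and Pml, which organises nuclear bodies, by 0.79 (SE 0.12). Of the 8 PARP family genes, which encode ADP-ribosyltransferases and partners, 5 fell. Parp12 was at 7.45, 7.92, 7.79 and 7.98 with JAK1, JAK1/2, PAN and TYK2, against 9.18, 9.02 and 9.06 with JAK2, IFN.6226 and IFN.6228. Its classes did not overlap, and it fell by 1.30 (SE 0.11, adjusted p = 1.82e-04). Parp14 fell by 1.06 (SE 0.19) and Dtx3l by 0.52 (SE 0.07).

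The Schlafen genes restrict viral translation and T cell growth in mice, and all 7 tested lay lower without overlap, 4 of them called. Slfn5 was at 6.15, 7.05, 7.21 and 7.16 with JAK1, JAK1/2, PAN and TYK2, against 8.84, 8.51 and 8.52 with JAK2, IFN.6226 and IFN.6228, and fell by 1.73 (SE 0.20). Slfn8 fell by 1.20 (SE 0.19), Slfn1 by 0.51 (SE 0.08) and Slfn3 by 0.41 (SE 0.07). With TYK2 both Slfn1 (10.51) and Slfn3 (9.07) were lower than with JAK1 (10.53 and 9.22), while Slfn5 with TYK2 lay with JAK1/2 and PAN.

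GTPases best known as interferon gamma targets were lower as well. The 4 immunity-related GTPases tested fell. Of these, Gm12185 averaged 6.24 in the JAK1 or TYK2 class at 2 h, under the 6.27 a gene needed on average over all 14 arrays. It passed the filter through arrays outside those 4, and averaged 7.24 in the other class at 2 h. Iigp1 was at 6.99, 7.97, 8.27 and 8.19 with JAK1, JAK1/2, PAN and TYK2, against 9.25, 9.23 and 9.30 with JAK2, IFN.6226 and IFN.6228. The 3 values on the second side lay within 0.07 of each other, and Iigp1 fell by 1.41 (SE 0.23, adjusted p = 0.00904). This call was lost under robust moderation, with the spread from all 14 arrays, with the JAK3 pair averaged, without IFN.6228 and without JAK2. Irgm1 fell by 1.18 (SE 0.24), a call lost under quantile normalization, cyclic loess, no variance trend and robust moderation. It was also lost with the spread from all 14 arrays, with the JAK3 pair averaged, and when JAK1/2, JAK2, IFN.6226 or IFN.6228 was left out. Of the 7 guanylate-binding proteins tested, which attack the vacuoles of pathogens, all lay lower without overlap and 4 fell, from Gbp8 (-0.53, SE 0.11) to Gbp7 (-0.71, SE 0.13). The calls of Gbp4, Gbp7 and Gbp8 ended under quantile normalization, cyclic loess, no variance trend and robust moderation, among other settings. Of MHC class I loading and the immunoproteasome, 0 of 19 genes passed, at a median of -0.14, with 16 negative, 8 lower without overlap and 9 at an unadjusted p under 0.05. The closest were Tap1, a peptide transporter chain (-0.31, SE 0.07, adjusted p = 0.0525), Nlrc5, the class I transactivator (-0.39, SE 0.09, adjusted p = 0.0682) and H2-T24 (-0.62, SE 0.14, adjusted p = 0.0875). B2m, the light chain of class I molecules, was at 0.07.

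Among other interferon-induced effectors 15 of 41 tested fell and 34 did not overlap. Rnf213, a large ubiquitin ligase, fell by 1.43 (SE 0.16), and both its probe sets were lower. Daxx fell by 0.73 (SE 0.08), Isg20, an exonuclease, by 0.83 (SE 0.12) and Nampt, an enzyme of NAD synthesis, by 0.58 (SE 0.07). Rtp4, a receptor transporter, was at 6.29 with JAK1, 8.59 with JAK1/2, 8.78 with PAN and 8.63 with TYK2, against 10.02 with JAK2, 9.87 with IFN.6226 and 9.71 with IFN.6228. Its classes did not overlap, but the difference of -1.79 (SE 0.45) did not pass (adjusted p = 0.143). Of the membrane-bound IFITM group, Ifitm1 was at -0.03, Ifitm2 at 0.11 and Ifitm3 at -0.35 (SE 0.12), each with overlapping classes. Outside the interferon families, Cxcl10, a chemokine that draws T cells, was the 1 chemokine of 7 to pass. It was at 7.44, 7.49, 7.47 and 7.19 with JAK1, JAK1/2, PAN and TYK2, against 8.09, 8.29 and 8.14 with JAK2, IFN.6226 and IFN.6228, and fell by 0.78 (SE 0.09). Of 14 genes of cell death and TNF superfamily ligands, 2 fell. Casp4, an inflammatory caspase, fell by 0.34 (SE 0.07, adjusted p = 0.0467), and Tnfsf10, which encodes TRAIL, by 0.64 (SE 0.10). The call of Casp4 ended whichever inhibitor was left out, and under median centring and quantile normalization, among other settings. That of Tnfsf10 ended with the spread from all 14 arrays, with the JAK3 pair averaged, without IFN.6228 and without JAK2.

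The 14 genes that fell and stood in no list used here covered a smaller range. The largest was Samd9l, a restriction factor (-0.97, SE 0.20). Sdc3, a heparan sulfate proteoglycan of the cell surface, was at 7.49, 7.68, 7.39 and 7.499 with JAK1, JAK1/2, PAN and TYK2, against 8.52, 8.35 and 8.25 with JAK2, IFN.6226 and IFN.6228. It fell by 0.86 (SE 0.09, adjusted p = 6.18e-04), and here PAN was the lowest. Trafd1, a regulator of innate signalling, fell by 0.80 (SE 0.12), Tmem184b by 0.51 (SE 0.07), Zup1, a deubiquitinase, by 0.50 (SE 0.08) and B4galt5, a galactosyltransferase, by 0.46 (SE 0.08). Ms4a4c fell by 0.55 (SE 0.10) and was lowest with TYK2, at 9.26, against 9.34 with JAK1. Asb13 had the smallest spread of all 82 over the 4 inhibitors, at 9.43, 9.47, 9.41 and 9.46 against 9.80, 9.86 and 9.90, and fell by 0.41 (SE 0.06).

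In the signalling chain itself 1 factor passed the test. The receptor chains Ifnar1 (0.00, SE 0.07) and Ifnar2 (-0.00, SE 0.06) and the kinases Jak1 (-0.03, SE 0.05), Jak2 (-0.09, SE 0.06) and Tyk2 (0.06, SE 0.08) overlapped between the classes. Jak3 was not analysed here, since no probe set carried its symbol by itself. Stat2 was at 8.48, 9.17, 9.23 and 9.44 with JAK1, JAK1/2, PAN and TYK2, against 10.27, 10.07 and 10.26 with JAK2, IFN.6226 and IFN.6228. It was the 1 gene of 15 STAT and IRF factors that fell, by 1.12 (SE 0.17, adjusted p = 0.00586), a call lost under robust moderation, without IFN.6228 and without JAK2. Irf7, which amplifies interferon transcription, was at 7.23, 9.01, 8.86 and 9.02, against 9.99, 10.11 and 9.99 in the same order. Its classes did not overlap, but JAK1 lay 1.63 below the next array and the difference of -1.499 (SE 0.33) missed the threshold (adjusted p = 0.0690). Irf9 (-0.37, SE 0.10), Irf1 (-0.37, SE 0.14) and Stat3 (-0.23, SE 0.05) also lay lower without overlap and did not pass.

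Pathways of other cytokines and of activation had small class differences. Of 36 tested genes that interleukin-2 induces through STAT5, 0 passed, at a median of -0.04 (3 at an unadjusted p under 0.05). Cish, the STAT5-induced feedback inhibitor, split the inhibitors in another way. It was at 8.98 with JAK1, 9.89 with JAK1/2, 9.62 with PAN and 10.14 with TYK2, against 10.61 with JAK2, 9.20 with IFN.6226 and 9.05 with IFN.6228. JAK1 and both JAK3 inhibitors were the low arrays and JAK2 and TYK2 the high ones, and the class difference was 0.04 (SE 0.32). Socs1 (-0.26, SE 0.17) and Socs3 (0.00, SE 0.17), inhibitors of the same kind, were likewise highest with JAK2, at 10.24 and 8.59, and lowest with JAK1, at 9.17 and 7.78. In the lists of cytokine receptor chains, T helper cytokines, lineage factors, early activation genes, NF-kB, quiescence, cell cycle, glycolysis, oxidative phosphorylation and MHC class II, 0 genes passed in each, with medians between -0.06 and 0.05. No gene was called higher. Those with the smallest p in that direction were Fasl, the Fas ligand (0.30, SE 0.08, adjusted p = 0.185), Penk, a precursor of enkephalins (0.29, SE 0.08), the zinc finger genes Zfp983 (0.31) and Zfp948 (0.27), and the small nucleolar RNA Snord42b (0.21).

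These genes were not equally low with the 4 inhibitors naming JAK1 or TYK2. No inhibitor had a second array at 2 h, so the following are values with no test. Against the mean of the 3 arrays with JAK2 or JAK3 only, the 111 genes of the interferon lists had a median of -0.93 with JAK1, -0.54 with JAK1/2, -0.45 with PAN and -0.56 with TYK2, while the medians over all genes tested lay between -0.00 and 0.02. JAK1 put 72 of the 111 past a 1.5-fold lower level (1.10% of all genes tested), JAK1/2 50 (0.515%), PAN 42 (0.430%) and TYK2 52 (0.582%). In the higher direction 0 of the 111 were past 1.5-fold, and of all genes 13 were with JAK1 (0.110%), 8 with JAK1/2 (0.0675%), 0 with PAN and 3 with TYK2 (0.0253%). Of the 82 genes that fell, 40 were past 1.5-fold with each of the 4. JAK1 was the lowest of the 4 in 67 of the 82, TYK2 in 9, PAN in 4 and JAK1/2 in 2, and PAN was the highest in 46. Such ranks were not counted over all genes tested. The median distance of JAK1 from the mean of the other 3 was -0.45.

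The TYK2 inhibitor lay among JAK1/2 and PAN in these genes, below their mean in 47 of 82, with a median difference of -0.03. The 9 genes lowest with TYK2 were Cxcl10, Oasl1, Ube2l6, Ms4a4c, Slfn1, Slfn3, Znfx1, Apobec1 and Sh3bp2. Those farthest below the mean of the other 3 were Tlr7 (-0.33), Ms4a4c (-0.29) and Cxcl10 (-0.27), and those farthest above it were Usp18 (0.53), Ifit1 (0.53) and Trim30d (0.52), where the JAK1 array lowers that mean. Against the mean of JAK1/2 and PAN alone TYK2 was at -0.11 in Usp18, -0.04 in Ifit1 and 0.19 in Trim30d. Of the 82 genes, Usp18 (2.01), Ifit1 (1.80) and Ifit3 (1.58) spread most over the 4 inhibitors, and Asb13 (0.06), Rbm43 (0.09) and Tor3a (0.11) least.

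The 3 inhibitors naming JAK2 or JAK3 only had these ranges in the same genes. Over the 82, the range over the 4 inhibitors naming JAK1 or TYK2 had a median of 0.54, and that over the other 3 a median of 0.14, the smaller in 78 genes (95.1%). Over all genes tested the medians were 0.19 and 0.18, and the range over the 3 was the smaller in 54.0%. These are descriptions, since 3 arrays span less than 4 and the class test favours genes with a small spread. Set against the mean of the other 2 of its class, each of the 3 put 0 of the 111 interferon genes past 1.5-fold in either direction. In this comparison 26 genes of all tested were lower with JAK2 (0.219%) and 16 higher (0.135%), 4 lower with IFN.6226 (0.0338%) and 1 higher (0.00844%), and 9 lower with IFN.6228 (0.0759%) and 5 higher (0.0422%). The JAK2 array was the highest of the 3 in 40 of the 82 genes, IFN.6228 in 30 and IFN.6226 in 12.

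**Figure D4:**
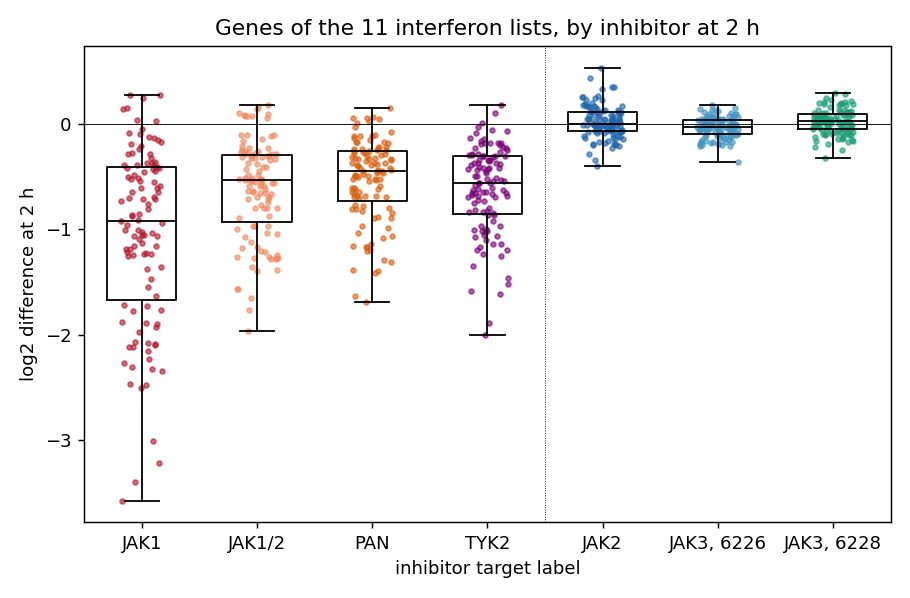
Points are the 111 tested genes of the interferon lists, boxes give the median and quartiles and whiskers the full range of log2 differences. JAK1, JAK1/2, PAN and TYK2 are set against the mean of the other 3 arrays and have medians of -0.93, -0.54, -0.45 and -0.56. JAK2 and the JAK3 inhibitors are set against the mean of the other 2 of their class and centre near 0.

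The arrays taken at 8 h hold the same 7 inhibitors and did not enter the class test that called the 82 genes. They did enter the mean over all 14 arrays that set the filter and picked each gene's probe set. Whether they share cultures with the 2 h arrays is not given in the sources used here. All 82 again had the lower mean in the JAK1 or TYK2 class, with a median of -0.44, where the median of all genes tested was -0.08. Without overlap at 8 h were 56 of the 82 (68.3%), against 13.6% of all genes tested in that direction, and 0 genes passed at 8 h (1858 at an unadjusted p under 0.05). JAK1 was the lowest of the 4 in 81 of the 82 at 8 h. For this count and for the lower means, the share over all genes tested was not counted. The JAK1 array at 8 h had an upper quartile of intensity of 398, against 427 to 497 on the other 8 h arrays. What part of the count this gives was not tested. The difference was smaller than at 2 h in 81, which is partly given by choosing the genes at 2 h, and larger in Ube2l6 (-0.78 at 8 h). A test of the change in class difference passed in 9 of the 82 and in 12 genes of all tested (0.101%, limma on the 8 h minus 2 h value of each inhibitor).

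**Figure D5:**
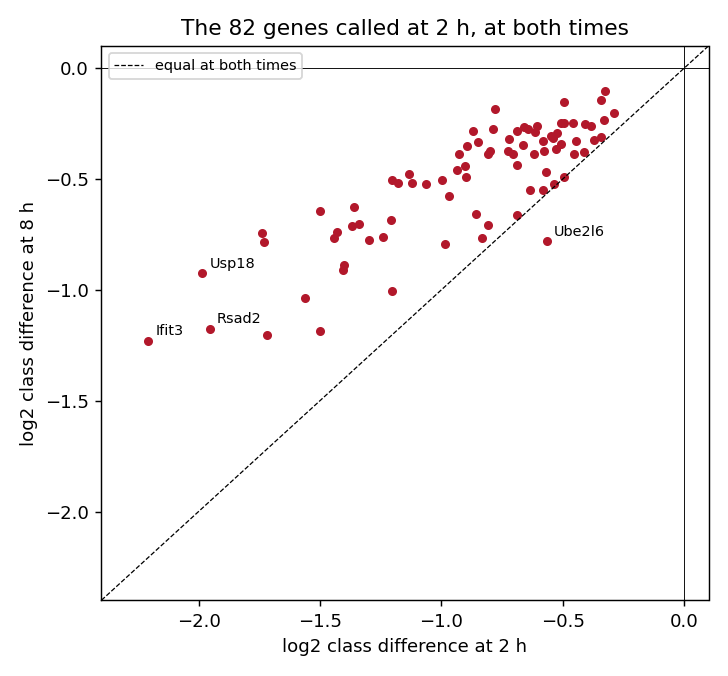
Points are the 82 genes that fell at 2 h, by their log2 class difference at 2 h (x axis) and at 8 h (y axis), and the dashed line marks equal differences. Ifit3 was at -2.21 at 2 h and -1.23 at 8 h, and Ube2l6 alone lies below the line.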

How the data were processed

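The authors deposited 1 intensity per probe set and array from Affymetrix Mouse Gene 1.0 ST arrays. RMA and Affymetrix Power Tools are listed in the submitters' processing notes, with no version. The deposited intensities were all above 0 (4.78 to 22879) and were taken as a linear scale, of which the log2 was used here. Any rescaling after RMA, and which arrays it covered together, are not given in the sources used here. Precision is limited by the number of arrays.

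Of 24922 probe sets, 21425 carried 1 gene symbol (19752 symbols), 1399 several and 2098 none, and the first kind was used. RefSeq names (GRCm38.p6) held 21347 of the identifiers and changed 0 symbols. Genes at or above the 40th percentile of mean log2 intensity (6.27) were tested. This mean, which also picked the brightest probe set of a gene, was taken over all 14 arrays of both times. The class test was limma (lmFit, eBayes with trend=TRUE) on the 7 arrays, two-sided, adjusted by Benjamini-Hochberg over all genes. Gene positions came from the same table.

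The 28 gene lists, the comparison and the rule for named genes were chosen with earlier results of these data known. Named were the 15 largest differences, or the 5 smallest p where none passed, up to 4 members per list, a fixed set of signalling genes, the 10 largest genes in no list and extremes among the inhibitors. Oas1a, Oas1b, Oas1c, Eif2ak2, Ifi203, Ifi208, Cgas, Aim2, Sting1, Mavs, Uba7, B2m, Isg20, Rtp4, Ifitm1, Ifitm2, Ifitm3, Znfx1, Apobec1, Sh3bp2 and the neighbouring pairs lie outside that rule and were picked with their values in view. The 8 h minus 2 h test and the fit of all probe sets were also added after the data were seen. In simulated data (11851 genes, 200 changed) the class test recovered 79.4%, 98.5% and 100% of genes changed by 0.5, 1 and 2 on the log2 scale and called 14 unchanged genes. The simulated noise was normal and independent between genes, and the changes went both ways on genes drawn at random. The 82 genes had a median range over the 4 inhibitors naming JAK1 or TYK2 of 0.54, against 0.19 over all genes tested. Recovery in genes with such a spread was not measured. Tools were R 4.3.3, limma 3.58.1, statmod 1.5.0, matplotlib 3.10.9, scipy 1.17.1, pandas 2.3.3, numpy 2.4.6 and Python 3.11.15.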

Additional observations from a re-analysis of the deposited data

Results flagged for a closer look

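Within the 4 inhibitors naming JAK1 or TYK2, 22 of the 132 named genes had 1 array far from the other 3 at 2 h by Dixon's test. Chance gives about 1 in 20 only for genes chosen without regard to their values. The named genes were chosen from these same arrays, some by their spread over the 4 inhibitors, so the count cannot be set against that rate. It was not made over all genes tested. In 18 of the 22 the JAK1 array was the low one. These were Usp18 at a log2 intensity of 7.32, Ifit1 at 7.21, Slfn5 at 6.15, Dhx58 at 7.45, Cmpk2 at 6.82, Oas3 at 7.41, Irf7 at 7.23, Irf9 at 10.08, Herc6 at 8.17, Trim25 at 9.41, Parp10 at 7.87, Trim21 at 8.79, Gbp7 at 8.80, Nlrc5 at 10.41, Tnfsf10 at 7.53, Il12rb1 at 9.75, Pfkp at 10.52 and Gm4841 at 6.34. The TYK2 array stood apart in Ifnar2 (low, 10.15), Cxcl10 (low, 7.19) and the hexokinase Hk2 (high, 7.26), and the JAK1/2 array in Stat3 (high, 10.95). Genes move together on an array, so the flags are not independent.

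The class difference changed between 2 h and 8 h in 9 named genes (limma, adjusted p under 0.05), each time towards a smaller difference at 8 h. The change was 1.06 in Usp18, 1.00 in Ifit1, 0.95 in Slfn5, 0.86 in Dhx58, 0.83 in Irf7, 0.73 in Oas3, 0.70 in Slfn8, 0.66 in Irgm1 and 0.52 in Trim25.

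Probe sets with several gene symbols or none were left out of the comparison. In a fit of all 14976 probe sets at or above the same level, 19 of them fell in the JAK1 or TYK2 class, 5 with several symbols and 14 with none, and 0 higher. The largest differences were those of probe sets 10383192 (-1.59, SE 0.21) and 10383206 (-1.55, SE 0.27), both without a symbol. Most of the 14 carry numbers from 10383152 to 10383212, with differences from -1.59 to -1.27. Their numbers lie next to those of the Rnf213 probe sets 10383214 (-1.43) and 10383233 (-1.47). Whether they read 1 gene was not tested, so the 14 are not to be counted as separate genes.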

How the results depend on the processing

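The count of 82 lower genes was 46 with robust moderation, 18 with the spread taken from all 14 arrays, 34 with the JAK3 inhibitors averaged, and 28 to 105 with 1 inhibitor left out (28 without IFN.6228, 35 without JAK2, 47 without IFN.6226). The 18 and the 46 were all among the 82. Under every other alternative run (scaling, filter, probe set rule, trend, offset, a 1.5-fold minimum, without PAN, without TYK2) it was 55 to 105. No gene was higher except 1 without TYK2. The median of the interferon lists was -0.66 to -0.49 over all alternatives, and no named gene's call changed sign. The promoter share fell to 17.3% with the longer motif. Calls of Usp18, Ifit1, Gm4951, Parp14, Irgm1, Gbp4, Gbp7, Gbp8, Casp4, Samd9l, Gm8995, Ms4a4c and B4galt5 ended under quantile normalization, and the cause was not tested. No paired analysis was possible because each inhibitor had 1 array at 2 h and the numbers in the titles do not pair inhibitors. Without detection calls in the file, how far dim values such as those of Mx1 and Mx2 lie above background is unknown.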
